A study of Mus musculus with 67 samples.

Results

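The transcripts of hepatic glucose production Pck1, Pck2, G6pc, Fbp1, Pcx, Ppargc1a, Foxo1 and Slc37a4 were followed in mouse liver by RNA sequencing. These 8 genes were chosen by name, and 8 of 8 were found among the 55450 gene identifiers of the files and passed the expression filter that kept 16908 genes. The series holds 67 liver libraries from separately numbered wild-type (WT) mice and mice called Sestrin DKO in the design text and Sesn2 DKO in the genotype label (here DKO), all of which ate control or leucine-free food. Food lasted 24 hours (day 1) or 8 days (day 8). On day 1 there were 7 WT control, 12 WT leucine-free, 8 DKO control and 18 DKO leucine-free livers. On day 8 there were 5 WT control, 6 WT leucine-free, 5 DKO control and 6 DKO leucine-free livers. The labels give no strain, sex, age, hour of collection or feeding state, so these could not be set beside any result.

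Gluconeogenesis is the making of glucose from lactate, glycerol and amino acids, and in mammals the liver is its main site. Pyruvate carboxylase (Pcx) turns pyruvate into oxaloacetate in mitochondria, and phosphoenolpyruvate carboxykinase turns oxaloacetate into phosphoenolpyruvate in the cytosol (Pck1) or in mitochondria (Pck2). Fructose-1,6-bisphosphatase (Fbp1) reverses a committed step of glycolysis, and glucose-6-phosphatase (G6pc), fed by the glucose-6-phosphate transporter of the endoplasmic reticulum (Slc37a4), releases free glucose. Foxo1 encodes a transcription factor that insulin signalling keeps out of the nucleus, and Ppargc1a encodes the coactivator PGC-1alpha, which fasting hormones induce in liver.

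The count tables carry raw reads per gene, with 22814668 to 56916009 counts per library. Levels are given as CPM, the reads per 1000000 counts of a library size scaled by the trimmed mean of M-values (TMM). The 6 hepatocyte markers summed to 66099 to 137314 CPM in every library. Sesn1 separated the genotypes, at 9.24 to 22.2 CPM in WT and 3.49 to 7.68 CPM in DKO livers, and Sesn2 did not fall in DKO livers: on control food on day 1 it was 12.7 ± 1.57 CPM (SD) in WT and 13.3 ± 2.40 CPM in DKO. Where the DKO lesion lies relative to the counted exons of Sesn2 is not given, so its count does not check the genotype. Leucine-free DKO livers scattered more than DKO control livers on day 8. The mean squared residual of log2 CPM over genes was 0.192 to 0.431 in the former and 0.103 to 0.141 in the latter, while one shared estimate of spread served all groups. One DKO leucine-free liver of day 1, replicate 1, had Xist under 1 CPM; leaving it out ended no call among the 8 genes and added that of Pck2 on day 1 in DKO livers (0.37, adjusted p = 0.0499).

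The stretches from 250 bases before to 50 after the annotated start are shown for 3 of the genes, because their called diet responses differ. Pck1 rose on day 1 in both genotypes and on day 8 in DKO livers. Pck2 was called for diet only in DKO livers on day 8, and G6pc was called nowhere. The sequences are RefSeq's for GRCm38.p6, written 5′ to 3′ on the strand of the gene, and capitals mark motif matches found by search on both strands. The Pck1 window is chr2:173152823-173153122 on the plus strand, with a match to the cyclic AMP response element TGACGTNA (written here on the other strand) that starts at -93 from the start.
Pck1: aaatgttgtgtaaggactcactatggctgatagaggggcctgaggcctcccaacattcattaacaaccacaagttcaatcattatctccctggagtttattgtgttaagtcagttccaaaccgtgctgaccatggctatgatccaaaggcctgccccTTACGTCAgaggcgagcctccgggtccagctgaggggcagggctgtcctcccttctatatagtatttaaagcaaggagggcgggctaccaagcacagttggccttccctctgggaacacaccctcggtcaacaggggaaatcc
The Pck2 window is chr14:55540016-55540315 on the plus strand, with a match to the insulin response core TGTTTTG at -159 and to the C/EBP-ATF pattern TGATGNAAN at -104, the latter on the other strand.
Pck2: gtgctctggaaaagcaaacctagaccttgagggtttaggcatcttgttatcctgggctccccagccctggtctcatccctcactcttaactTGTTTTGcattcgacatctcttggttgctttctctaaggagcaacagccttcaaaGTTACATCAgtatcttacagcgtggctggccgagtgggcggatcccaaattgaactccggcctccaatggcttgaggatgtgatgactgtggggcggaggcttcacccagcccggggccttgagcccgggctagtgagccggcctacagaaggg
The G6pc window is chr11:101367466-101367765 on the plus strand, with a match to the same core at -174 and to the same C/EBP-ATF pattern on the other strand at -139.
G6pc: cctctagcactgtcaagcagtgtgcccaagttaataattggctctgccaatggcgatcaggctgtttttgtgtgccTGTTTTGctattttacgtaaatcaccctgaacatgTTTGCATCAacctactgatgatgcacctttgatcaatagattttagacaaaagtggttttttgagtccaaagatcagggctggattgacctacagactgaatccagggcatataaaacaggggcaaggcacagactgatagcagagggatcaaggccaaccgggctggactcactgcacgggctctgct
Of 32851 promoters of this length, 2.93% hold the full cyclic AMP element, 6.28% the insulin response core and 3.95% the C/EBP-ATF pattern. The FOXO pattern TGTTTAC (3.65% of promoters) and the glucocorticoid pattern (GNACA and TGTNC with 3 bases between, 0.475%) matched none of the 11 windows of the 8 genes. The half-site TGACG, which lies within the full element and occurs in 20.8% of promoters, matched in Pck1, Ppargc1a and Slc37a4. These are letter matches within the window and do not show binding.

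Per kilobase of exon, the mean level over the 67 livers was 892 CPM for Fbp1, 760 for Pck1, 151 for Pcx, 137 for G6pc, 45.2 for Slc37a4, 4.76 for Foxo1, 2.51 for Ppargc1a and 1.20 for Pck2. By this measure the cytosolic carboxykinase and the bisphosphatase stood highest of the 8 genes, and the mitochondrial carboxykinase lowest. The length was that of all annotated exons of a gene joined (7806 bases for Pck2, 6592 for Ppargc1a), not of 1 transcript. The order of the lowest genes may depend on that choice. Within groups the spread differed by gene. The coefficient of variation ran from 3.57% to 12.8% for Pcx but from 14.5% to 79.4% for Pck1. In GENCODE M21 on GRCm38, Pck1 lies at chr2:173153048-173159273, G6pc at chr11:101367561-101377903 and Fbp1 at chr13:62864753-62888282, and no other gene overlaps them. Pck2 (chr14:55540266-55551242) overlaps the antisense gene Gm10876, Pcx (chr19:4510472-4621752) overlaps Lrfn4 on the other strand, and Foxo1 (chr3:52268336-52353221) overlaps the antisense gene Gm20402. Ppargc1a (chr5:51454250-51567726) overlaps 4 unconfirmed transcripts, and Slc37a4 (chr9:44396852-44402968) holds the miRNA gene Mir7085. The libraries were directional, but the sources used here do not say how strand was set when reads were counted, so the counts of these 5 genes are less certain.

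**Figure D1:**
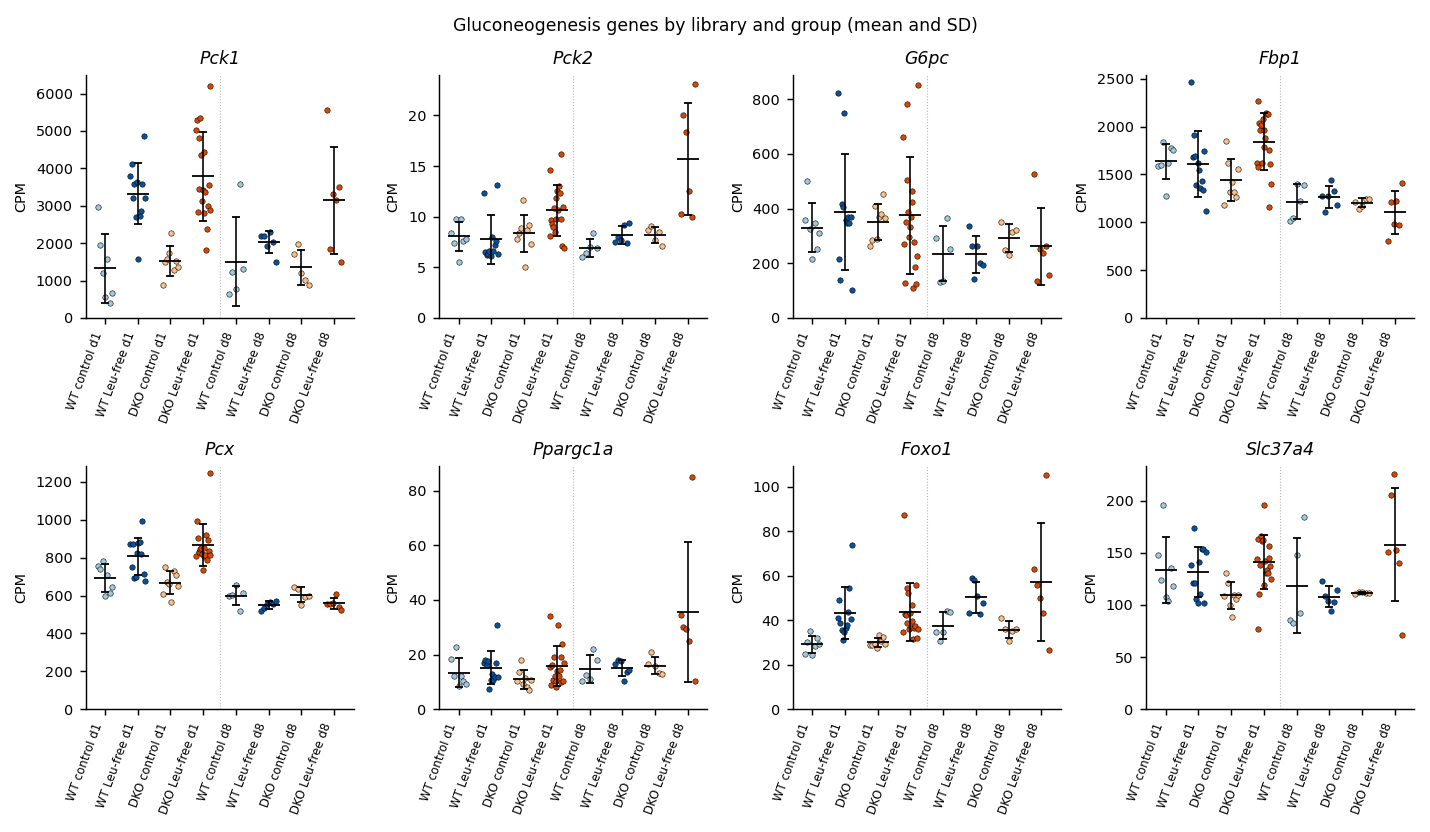
CPM of the 8 genes in each of the 67 livers (points; y axes are linear and differ between genes) by genotype, food and day, with the group mean and SD as bars. Pck1 is higher on leucine-free food on day 1 in both genotypes, and Pck2 in the 6 leucine-free DKO livers of day 8 (9.96 to 23.1 CPM) lies above every DKO control liver of that day.

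One day without leucine raised Pck1 about equally in both genotypes, raised Foxo1 and Pcx in both, and raised Fbp1 and Slc37a4 in DKO livers. Of the 8 genes, 3 rose and 0 fell in WT livers, where 19.5% of all genes tested changed in either direction, 8.28% higher and 11.2% lower. In DKO livers 5 rose and 0 fell, against 23.5% of all genes changed, 10.5% higher and 13% lower. The median log2 fold change was 0.20 over the 8 genes and 0.01 over all genes in WT, and 0.37 and 0.02 in DKO. The test was edgeR's quasi-likelihood test with Benjamini-Hochberg adjustment over all genes of a comparison, and a gene was called at an adjusted p under 0.05.

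Pck1, the rate-setting carboxykinase of the cytosol, ran from 393 to 2977 CPM (median 1206) in WT control livers and from 1584 to 4852 CPM (median 3391) in WT leucine-free livers of day 1. All 12 leucine-free livers lay above the control median and 8 above the highest control, so the groups overlapped only in part. The rise was 2.49-fold (log2 1.32 ± 0.29 SE, adjusted p = 0.000483). In DKO livers Pck1 ran from 879 to 2265 CPM (median 1501) on control food and from 1825 to 6213 CPM (median 3434) without leucine. Here 17 of 18 leucine-free livers exceeded every control, and the rise was 2.50-fold (log2 1.32 ± 0.26, adjusted p = 7.74e-05). The difference between the responses of the genotypes was 0.00 ± 0.37 on the log2 scale (adjusted p = 1.00).

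Pck2, its mitochondrial counterpart, had 5.55 to 9.80 CPM (median 7.82) in WT control and 6.09 to 13.2 CPM (median 6.64) in WT leucine-free livers of day 1. It was not called in WT, with a log2 fold change of -0.06 ± 0.16 (adjusted p = 0.832). In DKO livers it had 4.99 to 11.6 CPM (median 8.53) on control food and 6.91 to 16.2 CPM (median 10.2) without leucine. That difference of 0.35 ± 0.14 also missed the threshold (adjusted p = 0.0622), but passed it with the clock list's principal components as covariates (0.48, adjusted p = 0.0144) and without DKO control replicate 4 (0.43, adjusted p = 0.0266).

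Pcx, the mitochondrial entry enzyme, had 598 to 782 CPM (median 711) in WT control and 676 to 993 CPM (median 822) in WT leucine-free livers. The WT rise was 0.22 ± 0.07 (adjusted p = 0.0215), with 7 of 12 leucine-free livers above the highest control. It missed the threshold without WT control replicate 4, 6 or 7 (adjusted p 0.0541 to 0.0658) and when only these 2 groups were fitted (0.0707). In DKO livers Pcx had 567.5 to 751 CPM (median 667) on control food and 733 to 1248 CPM (median 833) without leucine, a rise of 0.37 ± 0.07 (adjusted p = 7.00e-06). All but 1 of the 18 leucine-free DKO livers lay above the highest control.

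Fbp1 had 1276 to 1839 CPM (median 1622) in WT control and 1113 to 2462 CPM (median 1583) in WT leucine-free livers, with a log2 fold change of -0.02 ± 0.11 (adjusted p = 0.905). In DKO livers it had 1178 to 1849 CPM (median 1371) on control food and 1157 to 2272 CPM (median 1923) without leucine, a rise of 0.36 ± 0.10 (adjusted p = 0.00546). The ranges overlapped, with 10 of 18 leucine-free livers above every control. The genotypes' responses of Fbp1 differed by 0.38 ± 0.15, which did not pass the adjustment (adjusted p = 0.605).

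The 2 genes of the last step differed from each other. G6pc had 216 to 499.8 CPM (median 326) in WT control and 103 to 821 CPM (median 363) in WT leucine-free livers. In DKO livers it had 263 to 453 CPM (median 366) on control food and 108 to 853 CPM (median 341) without leucine. The leucine-free ranges thus enclosed the control ranges in both genotypes, with 5 of the 18 DKO livers above and 5 below every DKO control. G6pc was not called in either genotype (0.23 ± 0.32, adjusted p = 0.668, in WT; 0.09 ± 0.28, adjusted p = 0.854, in DKO).

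Slc37a4 had 104 to 196 CPM (median 123) in WT control and 101 to 174 CPM (median 130) in WT leucine-free livers (log2 fold change -0.02 ± 0.14, adjusted p = 0.933). In DKO livers it had 88.4 to 131 CPM (median 109) on control food and 77.2 to 196 CPM (median 140) without leucine. The DKO rise was 0.37 ± 0.13 (adjusted p = 0.0299), and 13 of 18 leucine-free livers lay above every control. It missed the threshold without DKO control replicate 4 (adjusted p = 0.0577) or 5 (0.0653).

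Of the 2 regulators, Foxo1 rose in both genotypes on day 1. It had 24.5 to 35.1 CPM (median 29.2) in WT control and 31.0 to 74.1 CPM (median 39.6) in WT leucine-free livers, a rise of 0.56 ± 0.16 (adjusted p = 0.00756). In DKO livers it had 27.4 to 33.5 CPM (median 29.3) on control food and 31.6 to 87.6 CPM (median 39.3) without leucine, a rise of 0.54 ± 0.14 (adjusted p = 0.00344). Above the highest control lay 10 of 12 WT and 16 of 18 DKO livers. Ppargc1a was not called on day 1. It had 8.36 to 22.9 CPM (median 12.0) and 7.53 to 30.8 CPM (median 14.4) in WT control and leucine-free livers, and 7.00 to 18.0 CPM (median 10.4) and 8.26 to 34.3 CPM (median 14.2) in the DKO pair. The log2 differences were 0.18 ± 0.27 (adjusted p = 0.691) in WT and 0.54 ± 0.25 (adjusted p = 0.107) in DKO.

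**Figure D2:**
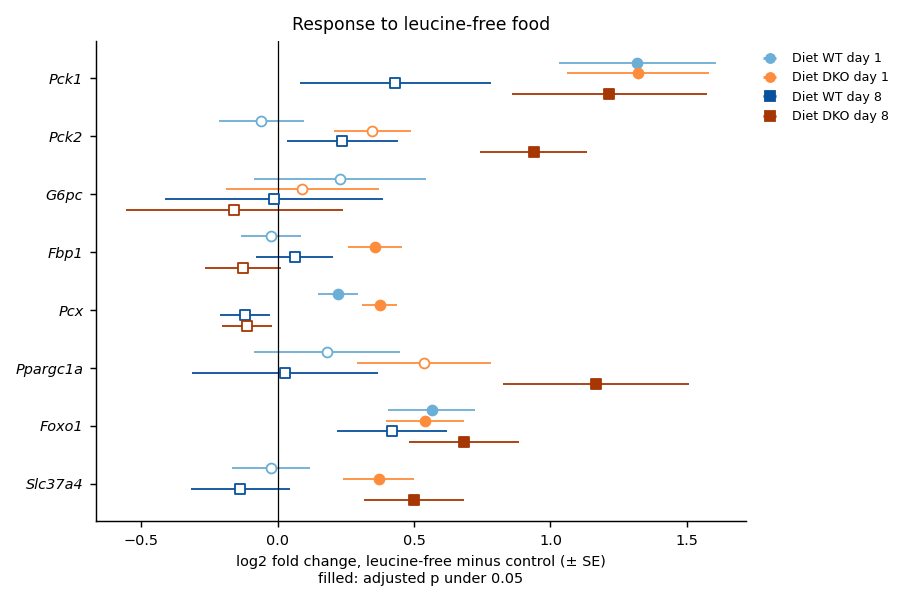
Log2 fold change of each gene on leucine-free against control food (x axis, ± SE), with circles for day 1 and squares for day 8, blue for WT and orange for DKO; filled symbols passed an adjusted p of 0.05. On day 8 the 5 filled symbols are all DKO and none is WT.

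After 8 days the diet difference was called for none of the genes in WT livers and for 5 in DKO livers: Pck1, Pck2, Ppargc1a, Foxo1 and Slc37a4 rose. In WT, 0 of 8 genes were called by edgeR's quasi-likelihood test, where 5.25% of all genes were; 1 gene had an unadjusted p under 0.05, DESeq2 called 0 and limma's voom called 1. In DKO, 5 of 8 rose and 0 fell, against 20.6% of all genes changed, 11.1% higher and 9.51% lower. The median log2 fold change was 0.04 over the 8 genes and -0.00 over all genes in WT, and 0.59 and 0.01 in DKO. The count of 5 became 3 without DKO leucine-free replicate 5, stayed at 5 without replicate 6, was 4 without any other single library of the pair, and was 2 (Pck1 and Pck2) when only the 2 groups were fitted. None of the 8 genes had a called difference between the genotypes' responses (7 of all genes did, 0.0414%); 3 had an unadjusted p under 0.05, and DESeq2 and voom called 0.

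Pck1 in WT control livers of day 8 was 636, 1221, 765, 3572 and 1314 CPM in replicates 1 to 5. Leucine-free WT livers ran from 1489 to 2302 CPM (median 2115), inside the control range that replicate 4 stretched. The log2 difference was 0.43 ± 0.35 (adjusted p = 0.530), and 1.03 without that replicate (adjusted p = 0.0847). In DKO livers Pck1 was 1697, 1971, 1192, 1027 and 871 CPM on control food and 5561, 1841, 3306, 3143, 3494 and 1497 CPM without leucine. Of the 6 leucine-free livers, 4 lay above every control, and replicates 2 and 6 lay among the controls. The DKO rise was 2.32-fold (log2 1.22 ± 0.36, adjusted p = 0.0101).

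Pck2 was the only one of the 8 genes whose groups did not overlap in a comparison. In DKO control livers of day 8 it was 8.65, 9.08, 7.70, 8.47 and 7.10 CPM, and in DKO leucine-free livers 10.2, 20.01, 18.4, 12.6, 9.96 and 23.1 CPM. Every leucine-free liver was above every control, a separation that 10.9% of all genes showed in this comparison. The rise was 1.92-fold (log2 0.94 ± 0.20, adjusted p = 0.000254). In WT livers Pck2 was 6.07, 6.37, 7.01, 8.35 and 6.93 CPM on control food and 7.36 to 9.42 CPM (median 7.85) without leucine. That difference of 0.24 ± 0.20 was not called (adjusted p = 0.555).

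Ppargc1a in DKO control livers of day 8 was 16.7, 21.0, 16.0, 13.4 and 12.8 CPM, and 34.4, 30.1, 29.3, 25.1, 85.2 and 10.4 CPM without leucine. Replicate 5 stood far above the rest and replicate 6 below every control, while the other 4 lay between. The rise was 2.25-fold (log2 1.17 ± 0.34, adjusted p = 0.00935). Without replicate 5 it was 0.69 and missed the threshold (adjusted p = 0.120). In WT livers Ppargc1a was 10.3, 12.6, 11.1, 22.2 and 18.2 CPM on control food and 10.5 to 18.1 CPM (median 15.5) without leucine, a difference of 0.03 ± 0.34 (adjusted p = 0.979).

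Foxo1 followed the same order of livers. In DKO control livers it was 41.2, 36.1, 30.6, 35.2 and 35.9 CPM, and without leucine 62.9, 55.9, 50.1, 43.2, 105 and 26.9 CPM. Replicate 5 was again the highest and replicate 6 the lowest. The rise was 0.68 ± 0.20 (adjusted p = 0.0102), and 0.42 without replicate 5 (adjusted p = 0.112). In WT livers Foxo1 was 34.6, 30.6, 34.7, 44.3 and 43.9 CPM on control food and 43.0 to 59.1 CPM (median 49.2) without leucine. That difference of 0.42 ± 0.20 was not called (adjusted p = 0.225), but was with voom (adjusted p = 0.0321) and when only the 2 groups were fitted (adjusted p = 0.0296).

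Slc37a4 lay between 110 and 112 CPM in all 5 DKO control livers of day 8 (SD 0.802), and was 150, 205, 226, 153, 140 and 71.3 CPM in the leucine-free ones. All but replicate 6 were above the controls, and replicate 6 was below them. The rise of 0.50 ± 0.18 (adjusted p = 0.0434) missed the threshold without any 1 of the 5 controls or of leucine-free replicates 1 to 4 (adjusted p 0.0509 to 0.159). In WT livers Slc37a4 was 85.4, 82.6, 148, 92.0 and 185 CPM on control food and 94.1 to 123 CPM (median 106) without leucine, a difference of -0.14 ± 0.18 (adjusted p = 0.737).

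The remaining 3 genes were called in neither genotype on day 8. Fbp1 was 1215, 1143, 1168, 1245 and 1244 CPM in DKO control livers and 801, 1216, 986, 1225, 972 and 1414 CPM without leucine (-0.13 ± 0.14, adjusted p = 0.575). G6pc was 351, 248, 229, 312 and 322 CPM in DKO control livers and 527, 136, 253, 237, 263 and 156 CPM without leucine (-0.16 ± 0.40, adjusted p = 0.828). For both genes the leucine-free livers lay on either side of the controls. In WT livers Fbp1 had 1015 to 1403 CPM on control food and 1108 to 1440 CPM without leucine (0.06 ± 0.14), and G6pc 132 to 366 and 143 to 335 CPM (-0.01 ± 0.40).

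Pcx, higher without leucine on day 1, was not called on day 8. In DKO control livers of day 8 it was 647, 632, 548, 594 and 599.5 CPM, and without leucine 556, 557, 563, 609.7, 539.8 and 524 CPM. The day 8 difference was -0.11 ± 0.09 in DKO (adjusted p = 0.409) and -0.12 ± 0.09 in WT (adjusted p = 0.496). Against the rise of day 1, the DKO response was lower on day 8 by a log2 difference of -0.49 ± 0.11 (adjusted p = 0.00245). It was the 1 gene of the 8 called for this change of response in DKO livers, a share close to the 8.84% of all genes called, 5.29% higher and 3.55% lower. The change for Fbp1 was of like size, -0.48 ± 0.17, and missed the threshold (adjusted p = 0.0635). Fbp1 was called with voom (-0.56, adjusted p = 0.00632), with mouse number as a block (-0.60, adjusted p = 0.0363), without the 3 libraries of highest residual (-0.57, adjusted p = 0.0245), and without DKO control replicate 2 or leucine-free replicate 16 or 18 of day 1 or leucine-free replicate 6 of day 8 (adjusted p 0.0316 to 0.0494). In WT livers 0 of the 8 were called and 1.64% of all genes were. There Pcx had -0.34 ± 0.12 (adjusted p = 0.106), 2 genes had an unadjusted p under 0.05, DESeq2 called 0 and voom called 1.

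Control livers gave no called genotype difference for these genes. On day 1, 0 of 8 were called by edgeR's quasi-likelihood test and 0 had an unadjusted p under 0.05, against 0.881% of all genes called. On day 8, 0 of 8 were called and 0 had an unadjusted p under 0.05, against 0.0532% of all genes called. DESeq2 and voom called 0 on both days. The largest of these differences in size was -0.29 ± 0.16 for Slc37a4 on day 1 and 0.32 ± 0.42 for G6pc on day 8.

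On leucine-free food, DKO livers had more Pck2 than WT livers at both times, and more Ppargc1a on day 8. These comparisons share their leucine-free DKO livers with the diet comparisons above. On day 1 Pck2 was the 1 gene called, against 3.7% of all genes, 1.87% higher and 1.83% lower. The share of higher among all called genes was 50.6% there, and 70.5% when libraries were scaled by total counts. All 18 DKO livers (6.91 to 16.2 CPM) lay above the WT median of 6.64 CPM, though the ranges overlapped. The difference was 0.46 ± 0.12 (adjusted p = 0.0229) and missed the threshold when only the 2 groups were fitted (adjusted p = 0.0595).

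On day 8 on leucine-free food 2 of 8 genes were higher in DKO and 0 lower, against 2.06% of all genes called, 1.44% higher and 0.621% lower. In WT livers Pck2 lay between 7.36 and 9.42 CPM, and in DKO livers between 9.96 and 23.1 CPM. The groups did not overlap, as for 1.41% of all genes, and the difference was 0.94 ± 0.19 (adjusted p = 0.00204). Ppargc1a had a median of 15.5 CPM in WT livers (10.5 to 18.1) and 29.7 CPM in DKO livers (10.4 to 85.2), with 5 of 6 DKO livers above every WT liver. Its difference was 1.24 ± 0.32 (adjusted p = 0.0244). Without DKO replicate 5 it was 0.77 (adjusted p = 0.200), and the call also ended without WT replicate 1 or 4 (adjusted p 0.0524 and 0.0714), with the clock covariates (0.0972) and when only the 2 groups were fitted (0.191). Slc37a4 differed by 0.55 ± 0.17 and was not called (adjusted p = 0.0787). It was called with all libraries by voom (0.65, adjusted p = 0.0142) and after scaling by total counts (0.57, adjusted p = 0.0442), and without DKO replicate 6 (0.70, adjusted p = 0.0143). Pck1 differed by 0.63 ± 0.33 (adjusted p = 0.384).

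The response to the diet itself was not shown to differ between genotypes. For Pck2 the DKO response exceeded the WT response by 0.41 ± 0.21 on day 1 (adjusted p = 0.897) and by 0.70 ± 0.28 on day 8 (adjusted p = 0.389). For Ppargc1a the excess on day 8 was 1.14 ± 0.48 (adjusted p = 0.431), and for Slc37a4 it was 0.64 ± 0.26 (adjusted p = 0.407). On day 1, 0 of 8 genes were called for this difference, against 0.373% of all genes; 2 had an unadjusted p under 0.05, and DESeq2 and voom called 0.

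**Figure D3:**
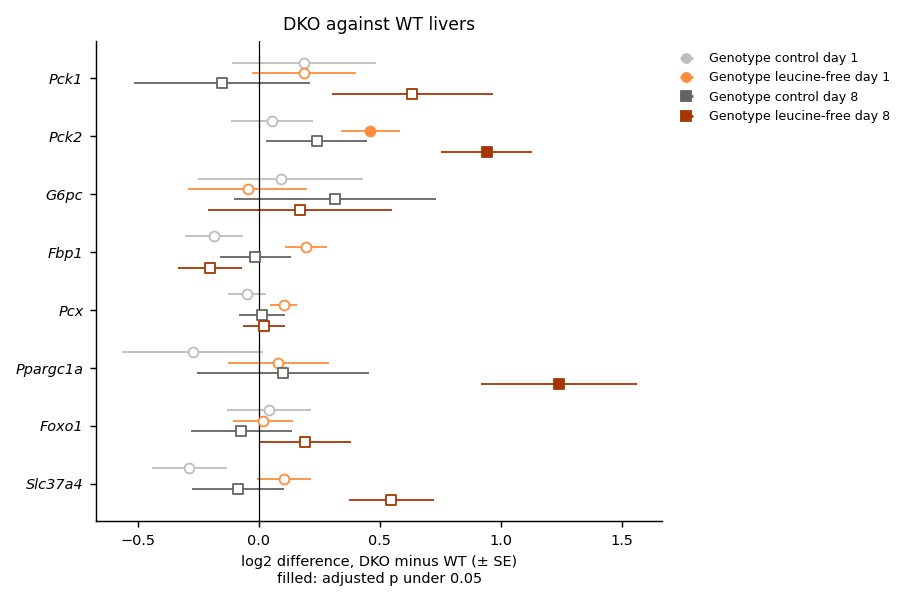
Log2 difference of DKO minus WT livers for each gene (x axis, ± SE), grey on control food and orange on leucine-free food, circles for day 1 and squares for day 8; filled symbols passed an adjusted p of 0.05. The filled symbols are Pck2 on both days (0.46 and 0.94) and Ppargc1a on day 8 (1.24), all on leucine-free food.

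Ordered by group mean, Pck1 was lowest in WT control livers of day 1 (1332 ± 921 CPM, SD) and highest in DKO leucine-free livers of day 1 (3783 ± 1189 CPM). The 4 control groups, from 1332 to 1515 CPM, stood together below the 4 leucine-free groups. Neighbours in that order overlapped for every one of the 8 genes. Their means differed by more than the larger SD in 4 places: for Pck1 between DKO control of day 1 and WT leucine-free of day 8, for Pcx between DKO control of day 8 and of day 1 and between WT control and WT leucine-free of day 1, and for Foxo1 between DKO control of day 1 and of day 8. Pcx, Fbp1 and G6pc had their 4 lowest group means on day 8, on either food.

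Among the 6 leucine-free DKO livers of day 8, the genes did not follow one order. Replicate 1 had the highest Pck1 and G6pc and the lowest Fbp1, replicate 5 the highest Ppargc1a and Foxo1 with the lowest Pck2, and replicate 6 the highest Pck2 and Fbp1 with the lowest Pck1, Ppargc1a, Foxo1 and Slc37a4. Replicate 6 also had the highest mean squared residual of its group (0.431). Its 12 pericentral markers summed to 4859 CPM against 10604 to 12656 CPM in the other 5 livers, its 6 hepatocyte markers to 73579 CPM against 87540 to 127229 CPM, and its 10 Kupffer cell markers to 759 CPM against 186 to 548 CPM. Their part in the values of replicate 6 was not tested, and in bulk tissue fewer cells of a type and less RNA per cell cannot be told apart.

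**Figure D4:**
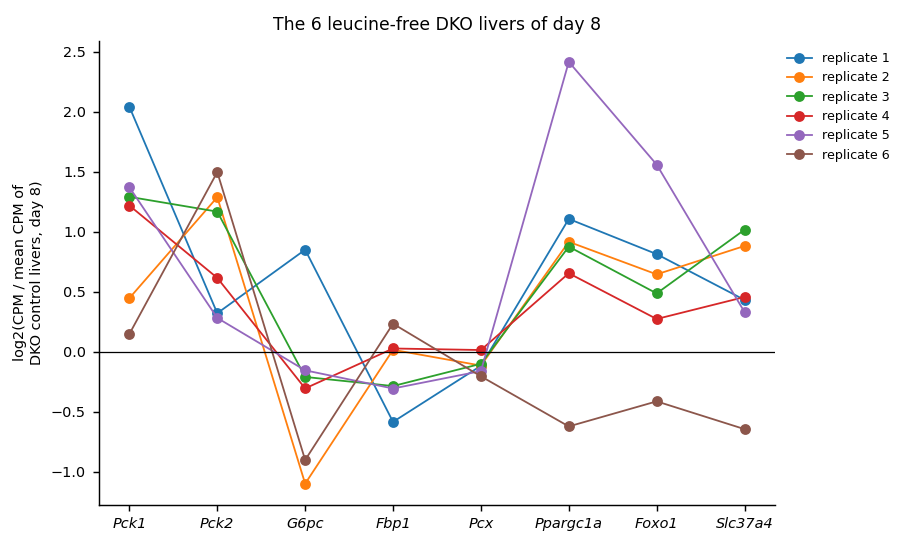
Log2 ratio of CPM in each of the 6 leucine-free DKO livers of day 8 to the mean of the 5 DKO control livers of that day (y axis) for the 8 genes; lines join the values of 1 liver. Replicate 5 stands highest for Ppargc1a and Foxo1, and replicate 6 lowest for Ppargc1a, Foxo1 and Slc37a4.

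Some markers of other cells and of liver zones were called for diet. On day 1, 8.28% of all genes were higher and 11.2% lower in WT, and 10.5% and 13% in DKO livers. On day 8, 5.25% were called in either direction in WT, and 11.1% were higher and 9.51% lower in DKO livers. Counts of 1 or 2 of 10 or 12 markers lie near these shares in DKO livers. On day 8, of 10 Kupffer cell markers, 8 fell in DKO livers (186 to 759 CPM summed, against 711 to 924 CPM on control food). In WT livers 4 fell that day (299.7 to 618 CPM against 654 to 864 CPM). On day 1, 0 of the 10 were called in either genotype. Of 12 pericentral markers, 4 rose and 1 fell in DKO livers on day 1 (10262 to 16895 CPM against 8105 to 11199 CPM) and 3 rose and 1 fell in WT livers, while on day 8 in DKO livers 0 rose and 2 fell. Of 10 periportal markers, 1 rose and 1 fell in DKO livers on day 1, and 1 rose and 3 fell in WT livers. On day 8, 1 rose and 2 fell in each genotype. Of 6 erythroid markers tested, 3 fell in DKO livers on each day (46.6 to 168 CPM against 79.7 to 154 CPM on day 1, and 34.4 to 163 CPM against 109.8 to 235 CPM on day 8, summed over 7 markers). The same number was lower in DKO than in WT livers on leucine-free food on day 1, where Pck2 was called. There 1.83% of all genes were lower and 1.87% higher. Also lower in DKO livers were 2 of 6 hepatocyte and 2 of 10 periportal markers, and of 12 pericentral markers 1 was higher and 1 lower. The hepatocyte markers summed to a median of 82738 CPM in these DKO and 104958 CPM in these WT livers. In DKO livers on day 8, 3 of 8 cholangiocyte markers fell (76.2 to 116 CPM against 135 to 157 CPM), as did 2 of 10 stellate cell and fibroblast markers. On day 1 in DKO livers 3 of 10 endothelial markers rose (365 to 638 CPM against 276 to 599 CPM). Of 12 clock genes, 1 rose and 1 fell in DKO livers on day 1, and 0 rose and 1 fell in WT livers on day 8. The clock output gene Dbp fell by 1.81 ± 0.62 in the former (adjusted p = 0.0260) and by 3.91 ± 1.13 in the latter (adjusted p = 0.0281). On leucine-free food on day 1 its median was 3.23 CPM in DKO and 13.8 CPM in WT livers, a difference of -1.93 ± 0.57 (adjusted p = 0.0391). There 0 of the 12 were higher and 1 was lower in DKO livers. The clock gene Arntl was called in none of these comparisons (adjusted p 0.127 to 0.447). In DKO livers on day 8 Dbp had 1.46 to 2.92 CPM without leucine and 1.25 to 18.1 CPM on control food, which was not called (adjusted p = 0.128). These lists' part in the results was not tested. Kidney cortex also makes glucose, but the 6 markers of the proximal tubule summed to 0.107 to 2.02 CPM in all libraries and 1 was at 0 throughout.

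Deviations from the group means were compared across the 67 livers to name, for each gene, the 3 most alike of 9446 genes. The livers share library, depth and scaling, so these are descriptions. Pck1 varied most like Crebrf (r = 0.67), a regulator named for binding CREB3, then Ctcflos (0.64) and the cationic amino acid transporter Slc7a2 (0.62). Pck2 varied like Ctsl (0.69), a lysosomal protease, Limk2 (0.68) and Pgap2 (0.67). G6pc varied like Btg1 (0.67), Cat, which encodes catalase (0.66), and Ube2h (0.65). Fbp1 varied like Fam213a (0.78), the respiratory chain gene Sdhb (0.78) and Ptpmt1 (0.75), and Pcx like Pnpla7 (0.68), Med16 (0.62) and Pgghg (0.60).

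Lpin1, which encodes a phosphatidate phosphatase and coactivator, stood among the nearest genes of both regulators, at r = 0.76 for Ppargc1a and 0.63 for Foxo1. Ppargc1a was followed by Pptc7 (0.68) and Cyth1 (0.67), and Foxo1 was led by Ell2 (0.71) and Tnfrsf1b (0.64). Slc37a4 varied like Mast3 (0.75), Cyp2d22 (0.72) and the bile acid transporter Slc10a1 (0.71). Among the 8 genes themselves the closest pairs were Ppargc1a with Foxo1 (0.59), Pck2 with Fbp1 (0.57), Pck1 with Ppargc1a (0.52) and Pck1 with G6pc (0.47). The 2 carboxykinase genes did not vary alike (r = -0.08).

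Within the 2 groups of over 10 livers, 6 pairs of Pck1, G6pc, Ppargc1a and Foxo1 were tested by a two-sided permutation test with 100000 resamples, 12 relations in all. In the 18 DKO leucine-free livers of day 1, Pck1 and G6pc were correlated. Pearson's r was 0.74 (permutation p = 4e-04, adjusted p = 0.00480) and Spearman's rho 0.68 (permutation p = 0.0028, adjusted p = 0.0336). Without the 2 livers farthest from the median of Pck1, r was 0.59. In the 12 WT leucine-free livers of day 1 the same pair had r = 0.06 (permutation p = 0.848, adjusted p = 0.968) and rho = 0.22 (adjusted p = 0.663), and the difference between the genotypes' correlations was not tested.

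Ppargc1a and Foxo1 in the same DKO livers had r = 0.63 (permutation p = 0.00521, adjusted p = 0.0313) and rho = 0.45 (permutation p = 0.0649, adjusted p = 0.141). Without the 2 farthest livers r was 0.37, so this relation rests in part on them. In WT livers Pck1 and Ppargc1a had r = 0.61 (permutation p = 0.0422, adjusted p = 0.101) and rho = 0.73 (permutation p = 0.0101, adjusted p = 0.0604), which did not pass the adjustment. The remaining 8 relations had adjusted p of 0.0656 or more by either measure.

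Other lists of the pathway are read against the share of all genes called. On day 1 that was 8.28% higher and 11.2% lower in WT, and 10.5% higher and 13% lower in DKO livers. On day 8 it was 5.25% in either direction in WT, and 11.1% higher and 9.51% lower in DKO livers. On day 1, of 19 other gluconeogenic enzymes and carriers, 0 rose and 10 fell in WT livers (median log2 -0.29, against 0.01 over all genes), and 1 rose and 8 fell in DKO livers (median -0.17, against 0.02). Most of these enzymes also serve glycolysis. Slc25a1, the mitochondrial citrate carrier, ran from 183 to 309 CPM in WT control and from 113 to 156 CPM in WT leucine-free livers. It fell by 0.92 ± 0.09 in WT (adjusted p = 4.19e-12) and by 0.94 ± 0.08 in DKO (adjusted p = 3.19e-15). Gapdh fell by 0.66 ± 0.09 in WT (adjusted p = 5.38e-08). On day 8, 1 rose and 1 fell in DKO livers: Mdh2, a malate dehydrogenase, rose by 0.52 ± 0.14 (adjusted p = 0.00373) and Slc25a1 fell by 0.60 ± 0.12 (adjusted p = 0.000126). In WT livers of day 8, 0 of 19 were called.

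Of 16 genes of substrate supply, 15 were tested. On day 1, 2 rose in WT (8.28% of all genes) and 5 in DKO livers (10.5%), and none fell. Ldha, a lactate dehydrogenase, rose by 0.68 ± 0.15 in WT (adjusted p = 0.000631) and 0.78 ± 0.14 in DKO (adjusted p = 1.08e-05), and glycerol kinase (Gk) by 0.52 ± 0.15 and 0.53 ± 0.13. On day 8, 3 rose and 1 fell in DKO livers (11.1% and 9.51% of all genes) and 0 were called in WT. The alanine transaminase genes Gpt and Gpt2 rose by 0.78 ± 0.23 and 0.84 ± 0.27 (adjusted p = 0.00960 and 0.0201), and Sdsl, related to serine dehydratase, by 0.92 ± 0.20 (adjusted p = 0.000400). Tat, the tyrosine transaminase, lay between 644 and 2123 CPM in leucine-free WT livers of day 1 and between 859 and 4334 CPM in the DKO ones, and was higher in DKO by 1.05 ± 0.22 (adjusted p = 0.00256).

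Of 13 genes listed for the opposing glycolytic steps and their regulation, 3 fell in each genotype on day 1, against 11.2% of all genes in WT and 13% in DKO livers. On day 8, 2 fell in each, where 9.51% of all genes fell in DKO livers and 5.25% were called in either direction in WT. None rose on either day. These counts include Pdk1, which encodes a kinase of pyruvate dehydrogenase and not a glycolytic enzyme. Its log2 fold change was -0.76 ± 0.17 in WT and -0.67 ± 0.15 in DKO livers on day 1, and -1.01 ± 0.22 in DKO livers on day 8. Pklr, liver pyruvate kinase, ran from 385 to 1105 CPM in WT control and from 82.0 to 305 CPM in WT leucine-free livers of day 1. It fell by 1.75 ± 0.23 (adjusted p = 3.60e-08). In DKO livers it fell by 1.73 ± 0.20 on day 1 (adjusted p = 3.66e-10) and by 2.33 ± 0.31 on day 8 (adjusted p = 4.66e-08), when controls had 509 to 648 CPM and leucine-free livers 72.1 to 189 CPM.

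Among 25 hormonal and transcriptional regulators, 5 rose in WT and 7 in DKO livers on day 1, against 8.28% and 10.5% of all genes, and none fell. On day 8, 2 rose in WT livers (5.25% of all genes called in either direction), and 6 rose and 1 fell in DKO livers (11.1% and 9.51% of all genes). Crtc2, a CREB coactivator, rose in all 4 diet comparisons, by 0.50 ± 0.07 and 0.36 ± 0.09 in WT and 0.35 ± 0.06 and 0.53 ± 0.09 in DKO livers on days 1 and 8. The glucagon receptor gene Gcgr rose by 0.33 ± 0.06 in WT and 0.36 ± 0.06 in DKO on day 1. Klf15 rose by 0.97 ± 0.18 (adjusted p = 6.09e-05) in DKO livers on day 8. Trib3 responds to ATF4 and restrains AKT. It rose in DKO livers by 2.20 ± 0.42 on day 1 and 3.13 ± 0.57 on day 8. The leucine-free DKO livers of day 8 spread widely, from 19.3 to 246 CPM (median 49.2). With leucine removed, the WT median of Trib3 went from 7.27 to 9.91 CPM on day 1. On day 8 it went from 6.70 to 11.8 CPM. On leucine-free food Trib3 was higher in DKO than in WT by 1.37 ± 0.34 and 2.32 ± 0.52. A difference between the genotypes' responses was called for 0 of the 25 regulators on either day.

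Target genes of 3 hormone pathways were counted against the same shares of all genes, and the lists were not tested against each other. On day 1 those shares were 8.28% higher and 11.2% lower in WT, and 10.5% and 13% in DKO livers. On day 8 they were 5.25% in either direction in WT, and 11.1% higher and 9.51% lower in DKO livers. Of 8 glucocorticoid-responsive genes, 2 rose in WT and 6 in DKO livers on day 1, and 1 and 4 on day 8, and none fell. The DKO medians were 0.84 and 1.00 on the log2 scale, against 0.02 and 0.01 over all genes. The WT medians were 0.27 and 0.70, against 0.01 and -0.00 over all genes. A difference between the genotypes' responses was called for 0 of the 8 on either day, against 0.373% and 0.0414% of all genes. Fkbp5 rose in DKO livers by 0.87 ± 0.22 and 1.15 ± 0.31 on days 1 and 8. Of 10 cyclic AMP-responsive genes, 0 were called in WT on either day, 1 rose in DKO livers on day 1, and 1 rose and 1 fell on day 8, close to the share of all genes. The gene that rose, Per1, is also on the glucocorticoid and clock lists. Of 11 FOXO1 and insulin-repressed targets, 3 rose and 1 fell in WT and 4 rose and 2 fell in DKO livers on day 1, and 0 rose and 1 fell in WT and 1 rose and 1 fell in DKO livers on day 8. Angptl4 rose by 2.13 ± 0.46 in WT on day 1, Igfbp1 by 2.34 ± 0.76 in DKO on day 8 (adjusted p = 0.0217), and Sesn3 fell in all 4 diet comparisons.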

How the data were processed

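Liver RNA from 67 mice was sequenced from directional libraries, 1 library a mouse. The authors deposited raw read counts per gene; per the submitters' processing notes STAR 2.7.1a, featureCounts 2.0.1 and DESeq2 1.26.0 were used, with no role or order given. A count table of the whole series was not used here. All 55450 gene identifiers matched GENCODE M21, and 8 of 8 genes had a RefSeq promoter.

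Counts were fitted in 1 model of 8 groups with edgeR 4.0.16 (TMM, filterByExpr, robust quasi-likelihood; R 4.3.3), which kept 16908 genes and left out 38542. Of 12 comparisons, 4 tested food, 4 genotype and 4 differences between responses; p was adjusted within each over all genes. SE is the log2 fold change over the square root of F. Libraries held 22814668 to 56916009 counts. DESeq2 1.42.0 and limma 3.58.1 (voom with quality weights) were alternatives, beside other scalings, filters, covariates and left-out libraries. The test was tried on simulated counts. No libraries were duplicates: over 318 within-group pairs the chi-square statistic per degree of freedom was at least 18.2.

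The 8 genes and all lists were chosen with earlier results of these data known. All 8 are named in every comparison, with up to 3 called genes of smallest adjusted p per pathway list and the 3 genes of highest correlation of log2 CPM (prior count 2) deviations at a mean of 5 CPM or more; predicted genes were left out of the latter. Examples in the text are a part of these. Groups come from the labels, and the p-values measure spread between mice as labelled.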

Additional observations from a re-analysis of the deposited data

Results flagged for a closer look

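Over the 8 genes, 48 groups of 4 to 10 livers were checked for a liver far from the rest by Dixon's test at the 95% level, and 3 had one; by chance about 1 group in 20 would. Pck1 was 3572 CPM in WT control replicate 4 of day 8, and the next liver had 1314 CPM. G6pc was 527 CPM in DKO leucine-free replicate 1 of day 8, and the next had 263 CPM; without it the diet difference of G6pc was -0.49 rather than -0.16, still uncalled. Ppargc1a was 85.2 CPM in DKO leucine-free replicate 5 of day 8, and the next had 34.4 CPM.

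The diet response of Pcx in DKO livers differed between the days by a tested log2 difference of -0.49 ± 0.11 (edgeR quasi-likelihood, adjusted p = 0.00245), and stayed called under every alternative run (adjusted p 0.000718 to 0.00683). Leucine-free and control means were 866 and 669 CPM on day 1, and 558 and 604 CPM on day 8.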

How the results depend on the processing

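Over 3296 recomputed values, 29 calls were lost and 23 gained, and 0 called values changed sign. Pck1 kept its calls in WT and DKO livers on day 1 and in DKO livers on day 8, Pck2 its day 8 calls, and Pcx its change of response in DKO livers, under every alternative run. Of the 8 genes, voom called 1 for diet in WT on day 8, 1 for the change of response with day in WT and 2 in DKO (Pcx and Fbp1). When only the groups compared were fitted, diet called 1 in WT and 2 in DKO livers on day 8, and genotype on leucine-free food 0 on day 1 and 1 on day 8. With clock covariates the last was also 1. Without the 3 libraries of high residual, 2 were called for the change of response in DKO. The mouse number as a replicate block gave 2 there, and 4 for diet in DKO livers on each day; Slc37a4 was lost on both days (adjusted p 0.101 and 0.0651). The labels do not state that the numbers pair mice of different groups. Deviations of same-numbered livers of different groups correlated at a mean of 0.0199 (-0.402 to 0.542 over 168 pairs) and others at 0.00034. A mean over all groups cannot exclude pairing between some of them. Leaving out single livers gave 2 to 3 calls for diet in WT and 4 to 6 in DKO on day 1, 3 to 5 in DKO on day 8, 1 to 1 and 1 to 3 for genotype on leucine-free food on days 1 and 8, 1 to 2 for the change of response in DKO, and 0 elsewhere. The cause of these shifts was not tested. Leaving out single day 1 livers and the older edgeR dispersion were chosen after seeing the data.

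Over all genes, counts of called genes moved by over 1.5 times in these cases. The genotype count on leucine-free food of day 1 (625) became 284 with only its groups, 298 without a filter, 357 with the block, 393 with clock covariates, 1224 with voom and 1419 without the 3 libraries. The WT diet count of day 8 (888) became 1929 with voom, 1594 with only its groups and 501 without a filter, and the genotype count on leucine-free food of day 8 (349) became 107, 124 and 217 with only its groups, clock covariates and no filter. Control-food genotype counts of 149 and 9 on days 1 and 8 became 53 at a mean CPM of at least 1, and 92 with voom or 4 with the older dispersion. The 63 genes whose response differed by genotype on day 1 became 29 with voom and 36 at that filter, and the 7 of day 8 ranged from 0 without a filter to 67 with DESeq2 and 89 with voom. Changes of response with day, 278 in WT and 1494 in DKO, became 140 and 953 without a filter, the former 625 with voom and the latter 949 with the block.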
